A study of Homo sapiens with 2 samples.

Results

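The 8 genes of the CCT chaperonin, TCP1, CCT2, CCT3, CCT4, CCT5, CCT6A, CCT7 and CCT8, were examined for cytosine-to-uracil (C-to-U) edits in long-read cDNA libraries of HEK293T cells (named HEK293XT in the cell line label), an immortalized human embryonic kidney line. Gene models of the long-read isoforms were matched to GENCODE genes on hg38 by their exonic overlap on the same strand, and all listed positions of a matched model were kept. This gave 7 of the 8 genes, of 12178 gene models with a listed position in at least 1 library, and 148 of the distinct positions, 118 of 121930 in one library and 49 of 103684 in the other. There were 2 libraries, 1 per group. In the RBFOX2 library, methanol-fixed cells were incubated with a rabbit antibody against the splicing factor RBFOX2 and then with APOBEC1, a cytidine deaminase, fused to a nanobody that holds rabbit antibodies. In the enzyme-only library the same fusion was used without the RBFOX2 antibody, so both libraries carry the deaminase and differ in the antibody. With 1 library per group no difference has a replicate check, and no p-value is given. Intervals are 95% and exact (Clopper-Pearson), and counting error is all they cover.

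CCT, also called TRiC, is a cytosolic chaperonin that folds actin, tubulin and other proteins inside a chamber built of back-to-back rings, each with 1 copy of all 8 subunits. The subunits are paralogs: TCP1 is the alpha subunit, CCT2 beta, CCT3 gamma, CCT4 delta, CCT5 epsilon, CCT6A zeta, CCT7 eta and CCT8 theta. Over the 28 pairs of reference proteins, identity at aligned residues ran from 25.4% to 39.0% with a median of 30.7%. RBFOX2 binds RNA at the hexamer UGCAUG, and APOBEC1 prefers cytosines that follow A or U. An edit near UGCAUG that is listed with the antibody and not without it is therefore the pattern the assay is built to find.

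The RBFOX2 motif UGCAUG, searched on the sense strand of the reference mRNAs, occurred once each in CCT2, CCT7 and CCT8 and not in the other 5 genes. All 3 copies lay in coding sequence. The exonic stretches around them are shown because their listed sites differ between the genes. Letters are DNA of hg38, 5′ to 3′ on the gene's strand, with the hexamer and each cytosine listed in either library in capitals.

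CCT8, chr21:29064968-29065105, minus strand, exon 7: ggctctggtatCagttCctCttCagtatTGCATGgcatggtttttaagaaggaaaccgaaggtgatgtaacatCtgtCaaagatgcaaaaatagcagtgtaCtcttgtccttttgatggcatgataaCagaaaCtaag
CCT2, chr12:69597644-69597766, plus strand, exon 12: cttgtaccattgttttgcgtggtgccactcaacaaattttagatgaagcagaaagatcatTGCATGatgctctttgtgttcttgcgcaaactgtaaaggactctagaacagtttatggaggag
CCT7, chr2:73250341-73250438, plus strand, exon 10: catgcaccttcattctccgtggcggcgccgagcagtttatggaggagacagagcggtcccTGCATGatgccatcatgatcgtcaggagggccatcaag

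The CCT8 exon carried 9 listed cytosines of its 23, all of them in the RBFOX2 library, and none was listed in the enzyme-only library. The CCT2 and CCT7 stretches carried no listed cytosine in either library. In an alignment of the 8 proteins the hexamers of CCT2 and CCT7 began in the same aligned codon, codon 390 of CCT2 and codon 389 of CCT7, at base 2 of it. The CCT8 hexamer began at base 2 of codon 218, in another part of the protein.

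Within 50 nt of the CCT8 hexamer along the spliced mRNA there were 17 cytosines, 12 of them after A or U. In the RBFOX2 library 8 of these 17 were listed (47.1%, 23.0% to 72.2%), against 37 of the other 320 cytosines of the mRNA (11.6%, 8.27% to 15.6%). In the enzyme-only library 0 of the 17 were listed (interval up to 19.5%), against 16 of the other 320 (5.0%, 2.88% to 7.99%). The intervals near the hexamer and elsewhere did not overlap in the RBFOX2 library. Edits on 1 cDNA molecule are not independent, and the tables do not tie positions to reads, so these intervals are narrower than the number of molecules warrants.

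The site nearest to the hexamer, at chr21:29065083 and 6 nt upstream of it, was converted in 5 of 1361 reads (0.367%). The 3 sites before it, 9, 12 and 17 nt upstream, had 4, 3 and 4 converted reads. The 2 sites downstream, at 40 and 44 nt, had 3 each. The remaining 2 lie across the splice junction in exon 6, 31 and 50 nt upstream along the mRNA, with 8 and 5 converted reads. None of the 8 was listed among the 1261 enzyme-only reads, where up to 2 converted reads (0.159%) would have gone unlisted. At most of these positions 3 to 5 reads against at most 2 is a difference that counting error alone can span; the site at 31 nt, with 8 reads (0.588%, 0.254% to 1.15%), lies above that limit over its whole interval, though the limit carries a counting error of its own.

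**Figure D1:**
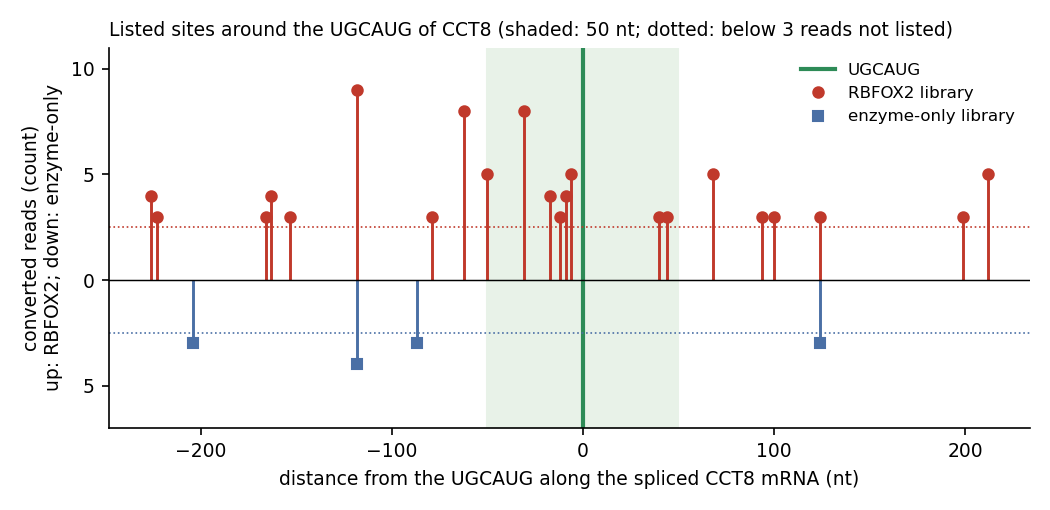
Converted reads at each listed cytosine of CCT8 against the distance from its UGCAUG along the spliced mRNA, in nt, with the RBFOX2 library upward and the enzyme-only library downward; dotted lines mark the level under which a position was not listed. The shaded 50 nt on either side hold 8 RBFOX2 sites and 0 enzyme-only sites.

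For comparison, the isoform exons of 149 other genes of like depth (1000 to 3000 reads in each library, with the same listing minimum in both) held 154 copies of UGCAUG, in 87 genes. Of these copies, 21.4% had an unshared RBFOX2 site within 50 nt on the genome and 4.55% an unshared enzyme-only site, an unshared site being one not listed in the other library. At least 4 unshared RBFOX2 sites lay near 7.14% of the copies. The CCT8 copy had 6 on this measure, which 3 of the 154 reached. The listing minimum, 3 converted reads in CCT8, rises with the reads of a gene, and this comparison was not adjusted for it. The isoform exons of the CCT genes held 5 copies, the 3 above and 1 further copy each in CCT2 and CCT4 outside the reference mRNA, and only the CCT8 copy had a site near it. Counted over the CCT genes, 6 of 99 unshared RBFOX2 sites (6.06%, 2.26% to 12.7%) and 0 of 30 unshared enzyme-only sites (up to 11.6%) fell within 50 nt of UGCAUG on the genome, against 1.84% of all cytosines in their isoform exons. All 6 were in CCT8, so the share describes that gene.

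No conclusion on binding follows from the empty windows of CCT2 and CCT7. A position there needed 5 converted reads to be listed, against 3 in CCT8, at 2460 and 2481 RBFOX2 reads. The window of CCT2 held 18 cytosines and that of CCT7 held 25, with 10 after A or U in each. With 0 listed, the intervals reach 18.5% for CCT2 and 13.7% for CCT7. These include the RBFOX2 shares elsewhere in the same mRNAs, 3.19% in CCT2 and 2.23% in CCT7, which were below the 11.6% of CCT8.

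The depth behind the values differed little between libraries. RBFOX2 and enzyme-only reads were 2460 and 2410 for CCT2, 1410 and 1351 for CCT4, 1810 and 1765 for CCT5, 1806 and 1626 for CCT6A, 2481 and 2313 for CCT7, and 1361 and 1261 for CCT8. A position was listed where the converted reads exceeded 0.002 of all reads of the gene, which set a minimum of 3 converted reads for CCT4 and CCT8, 4 for CCT5 and CCT6A, and 5 for CCT2 and CCT7. That minimum was the same in both libraries for each of these 6 genes, so their site counts can be set against each other directly.

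CCT8, the theta subunit, had the most listed sites in either library, 45 with the antibody and 16 without. CCT4, the delta subunit, followed with 29 and 14. CCT5 had 12 and 10, CCT2 11 and 2, CCT6A 11 and 2, and CCT7 9 and 5. All 6 genes had more sites in the RBFOX2 library, by 2 sites in CCT5 and by 29 in CCT8. TCP1 had 1 site in the RBFOX2 library, a threonine-to-isoleucine change (T255I) in 4 of 1793 reads, and was not listed in the enzyme-only library, where its depth is not given.

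**Figure D2:**
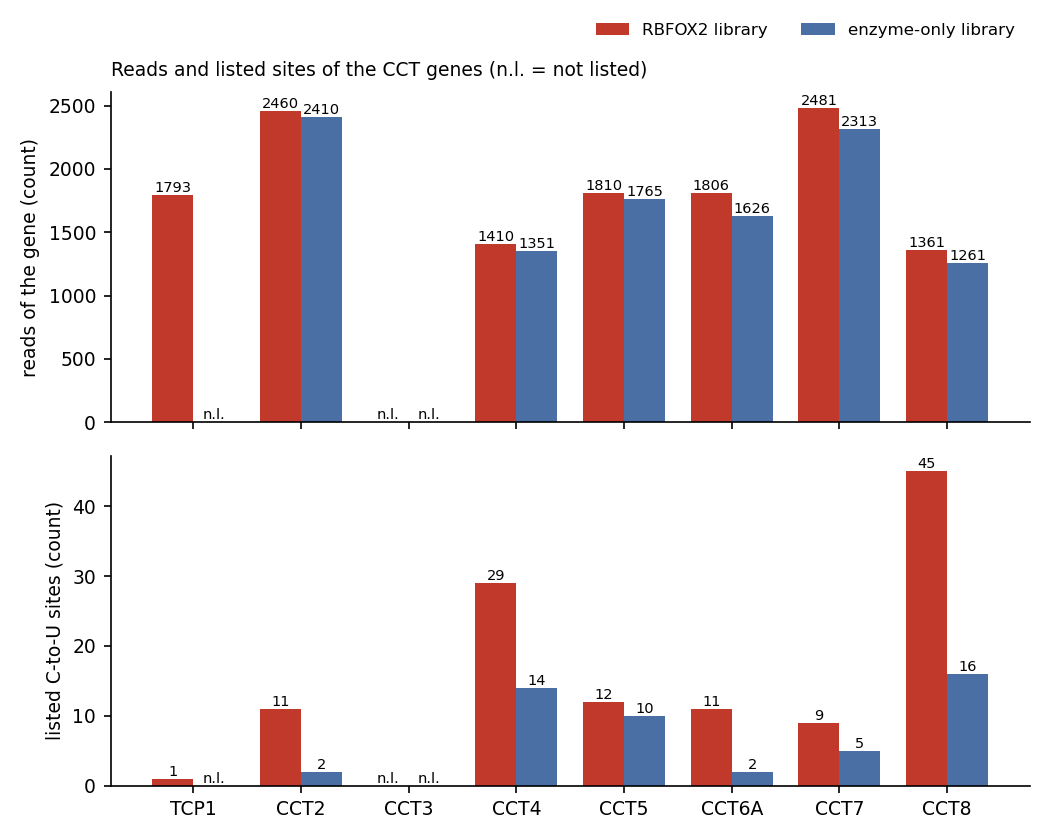
Reads of each CCT gene (top, count) and its listed C-to-U sites (bottom, count) in the RBFOX2 and enzyme-only libraries; n.l. marks a gene that a library does not list. Reads are close between libraries for the 6 genes listed in both, while sites range from 9 to 45 with the antibody and from 2 to 16 without it.

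CCT3, the gamma subunit, could not be measured. Its exons belong to a gene model of 60 isoforms at chr1:156249225-156338364 that also covers SMG5, and the rule gave that model to SMG5, with 4974 exonic nt in common against 2390 for CCT3. Of the 60 isoforms, 26 lie over CCT3. Neither library lists a position of this model or any position in the CCT3 gene, so nothing can be said of its editing or its depth.

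Counts alone favour long or cytosine-rich mRNAs, so sites were also set against the cytosines of each reference mRNA. In the RBFOX2 library 13.4% of the 337 cytosines of CCT8 were listed (9.91% to 17.5%) and 5.98% of the 485 of CCT4 (4.04% to 8.47%). The shares of the other 4 genes listed in both libraries lay between 1.77% for CCT5 and 3.03% for CCT2 (1.52% to 5.36%). At each gene's own listing minimum, over the reference mRNAs, the CCT8 interval lay above all the others. That of CCT4 lay above those of CCT5 and CCT7 only, overlapping those of CCT2 and CCT6A. Reference mRNAs hold 3′UTR cytosines that only some isoform models reach. In CCT5, a model ending at chr5:10265016 held all 12 sites at 3.06% of its cytosines, against 1.78% for one ending at chr5:10266388. A CCT4 model ending at chr2:61868461 gave 7.27%. The low share of CCT5 therefore depends on the 3′UTR counted. The CCT5 interval was not set against that of CCT4 over the isoforms present. In the enzyme-only library CCT8 was again first at 4.75% (2.74% to 7.60%), but its interval overlapped that of CCT4 at 2.89% (1.59% to 4.80%). Among cytosines after A or U, the ones APOBEC1 prefers, 24.5% were listed in CCT8 and 12% in CCT4 in the RBFOX2 library, and 8.70% and 5.56% in the enzyme-only library. These orders rest on the listing minimum, which was 3 converted reads in CCT8 and CCT4 and 4 or 5 in the other genes. With 5 converted reads asked of all genes, a choice made after seeing the data that asks a higher fraction of the shallower genes, CCT8 had 12 RBFOX2 sites (3.56% of its cytosines, 1.85% to 6.14%), CCT2 11 (3.03%, 1.52% to 5.36%) and CCT4 5 (1.03%, 0.336% to 2.39%), so that CCT8 no longer stood apart and CCT4 fell below CCT2 and CCT7 (2.10%). With a common minimum fraction of 0.246%, also chosen after seeing the data, CCT8 stood at 7.42% (4.86% to 10.8%), above the interval of CCT4 (2.27%, 1.14% to 4.02%) and those of the other 4 genes.

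Unshared sites of the CCT genes numbered 99 with the antibody and 30 without it, a ratio of 3.30, against 1.20 for all unshared sites of the libraries. On the log2 scale, with 0.5 added to each count and after scaling by the libraries' unshared sites, the ratio was 1.44 (0.86 to 2.10). Single genes gave 1.88 for CCT8 (37 and 8 sites, 0.82 to 3.26), 2.54 for CCT6A (10 and 1, 0.25 to 8.50), 1.02 for CCT4 (25 and 10, -0.05 to 2.28), 0.84 for CCT7 (7 and 3, -1.17 to 3.54) and 0.04 for CCT5 (10 and 8, -1.43 to 1.60). CCT2 had 9 and 0 unshared sites, for which only a lower bound of 0.72 can be given. The intervals of CCT2, CCT6A and CCT8 lay above 0 and those of CCT4, CCT5 and CCT7 included it. The genes' intervals overlapped one another, and differences between the 6 ratios were not tested.

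This excess was shared by other genes of like depth. The 149 other genes had 1213 and 479 unshared sites, a ratio of 2.53, with reads at a ratio of 1.09. Scaled by these genes in place of the whole libraries, the log2 ratio of the CCT genes was 0.37 (-0.22 to 1.02), CCT8 stood at 0.80 (-0.26 to 2.18) and CCT4 turned to -0.06 (-1.13 to 1.20). No CCT gene's interval excluded 0 on that scale. Among genes with at least 20 unshared sites, 16.8% of 3604 lay above a log2 ratio of 1 and 14.6% below -1. CCT4 and CCT8 were the only CCT genes with that many sites, and both were above 1. Among the 149 genes of like depth, however, 37.6% lay above 1 and 15.4% below -1, and 4 of the 6 CCT genes lay above 1 and 0 below -1. The median over the 6 CCT genes was 1.45, against 0.47 over the 149 genes. With CCT2 set at a floor of 3 enzyme-only sites it was 1.17, but the 149 genes were given no such floor. The outcome at matched depth depended on the reference. Against the summed sites of the 149 genes a difference was not resolved. Their median of 0.47 lay below the intervals of the CCT genes together, CCT2 and CCT8, and inside those of CCT4, CCT5, CCT6A and CCT7. A ratio as high was reached by 3.36% of the 149 genes for CCT2, 21.5% for CCT8 and between 11.4% and 64.4% for the others.

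**Figure D3:**
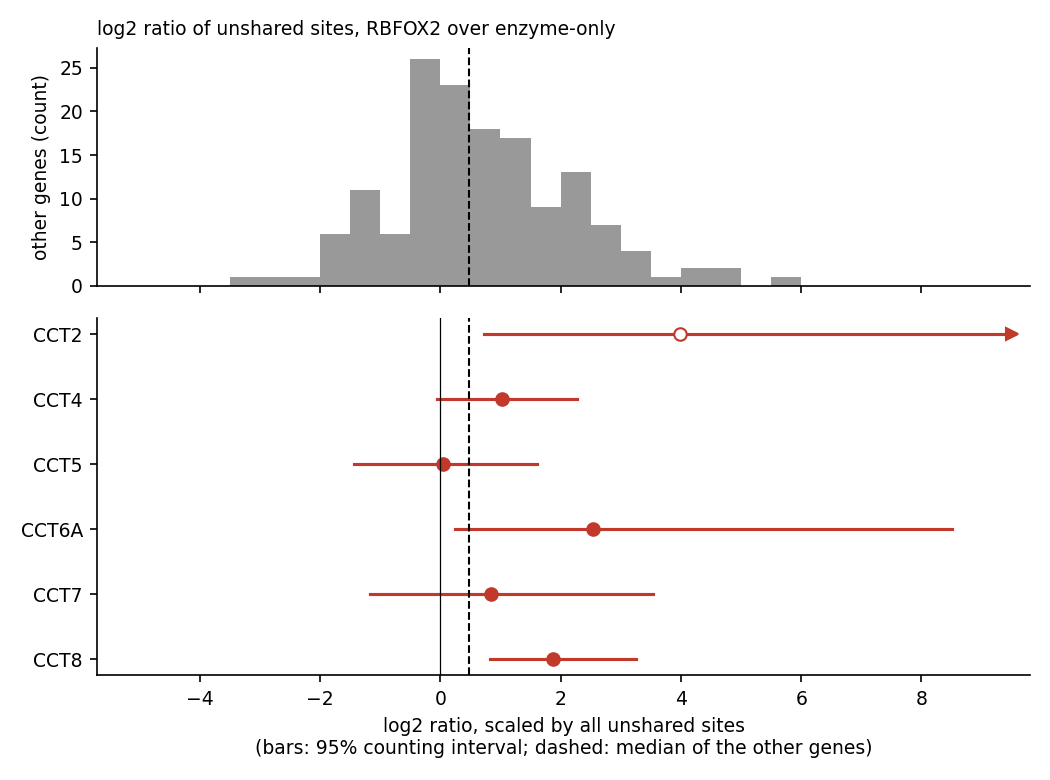
Log2 ratio of unshared sites, RBFOX2 over enzyme-only, for 149 other genes of 1000 to 3000 reads (top, histogram, count of genes) and for 6 CCT genes (bottom, points with 95% counting intervals; the open point is CCT2, whose interval has no upper end). The dashed line is the median of the other genes, 0.47, which lies inside the intervals of CCT4, CCT5, CCT6A and CCT7.

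The number of sites in CCT8 was high beside these genes: 2 of the 149 other genes (1.34%) had as many unshared RBFOX2 sites as its 37, and 14 (9.40%) as many enzyme-only sites as its 8. CCT4 was likewise high in both, matched by 10 genes (6.71%) and 8 genes (5.37%). The other 4 genes lay inside the middle range of RBFOX2 sites, whose quartiles were 2 and 11: CCT2 was matched by 30.2% of the 149 genes, CCT5 and CCT6A by 26.8% each and CCT7 by 41.6%. In enzyme-only sites CCT5 was as high as CCT8, matched by 9.40%, and CCT7 was matched by 51.0%. CCT6A, with 1 enzyme-only site, stood at the lower quartile of the other genes, which was 1, and was matched by 90.6%. CCT2, with 0, had the lowest count possible. The listing minimum rises with the reads of a gene and so differs among the 149 genes. It was 3 converted reads in CCT8 and CCT4 and 5 in CCT2 and CCT7. These ranks were not adjusted for it or for mRNA length. Among the genes most like the CCT mean in reads and unshared sites, by Euclidean distance on the log2 scale over 8203 genes, were SFPQ (distance 0.32, 11 and 3 sites) and STMN1 (0.71, 16 and 5).

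All 148 positions lay in exons of the isoform models and in the reference mRNAs, 116 in coding sequence and 32 in the 3′UTR, and none in an intron. Coding sequence of any transcript took 93 of 118 sites in the RBFOX2 library (78.8%, 70.3% to 85.8%) and 35 of 49 in the enzyme-only library (71.4%, 56.7% to 83.4%), and it holds 71.2% of the mRNAs' cytosines. Both intervals include that share, but that of the unshared RBFOX2 sites (81 of 99, 81.8%, 72.8% to 88.9%) lies above it. Where a position that is 3′UTR in any transcript was counted as 3′UTR, coding sequence took 76.3% of RBFOX2 sites (67.6% to 83.6%) and 67.3% of enzyme-only sites (52.5% to 80.1%), against 58.6% of cytosines, so that the RBFOX2 interval again lay above the share and the enzyme-only interval included it. Both reference shares count 3′UTR cytosines that only some isoform models reach, such as those of CCT5. Whether coding sites were in excess over the isoforms present was not tested. CCT8 sites were unevenly placed along its coding sequence. In the RBFOX2 library 28 fell upstream of the midpoint, where there are 146 cytosines, and 12 downstream, where there are 151, while the enzyme-only library had 5 and 6. CCT6A went the other way, with 0 and 6 RBFOX2 sites. Reads are given per gene only, so depth along each mRNA is not known, and its part in this placement was not tested. Among the exons of CCT8, exon 7 with the hexamer had the highest share of its cytosines listed in the RBFOX2 library (9 of 23), ahead of exon 6 before it (4 of 11), against 0 and 1 enzyme-only sites. The last exon had 6 sites in each library.

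**Figure D4:**
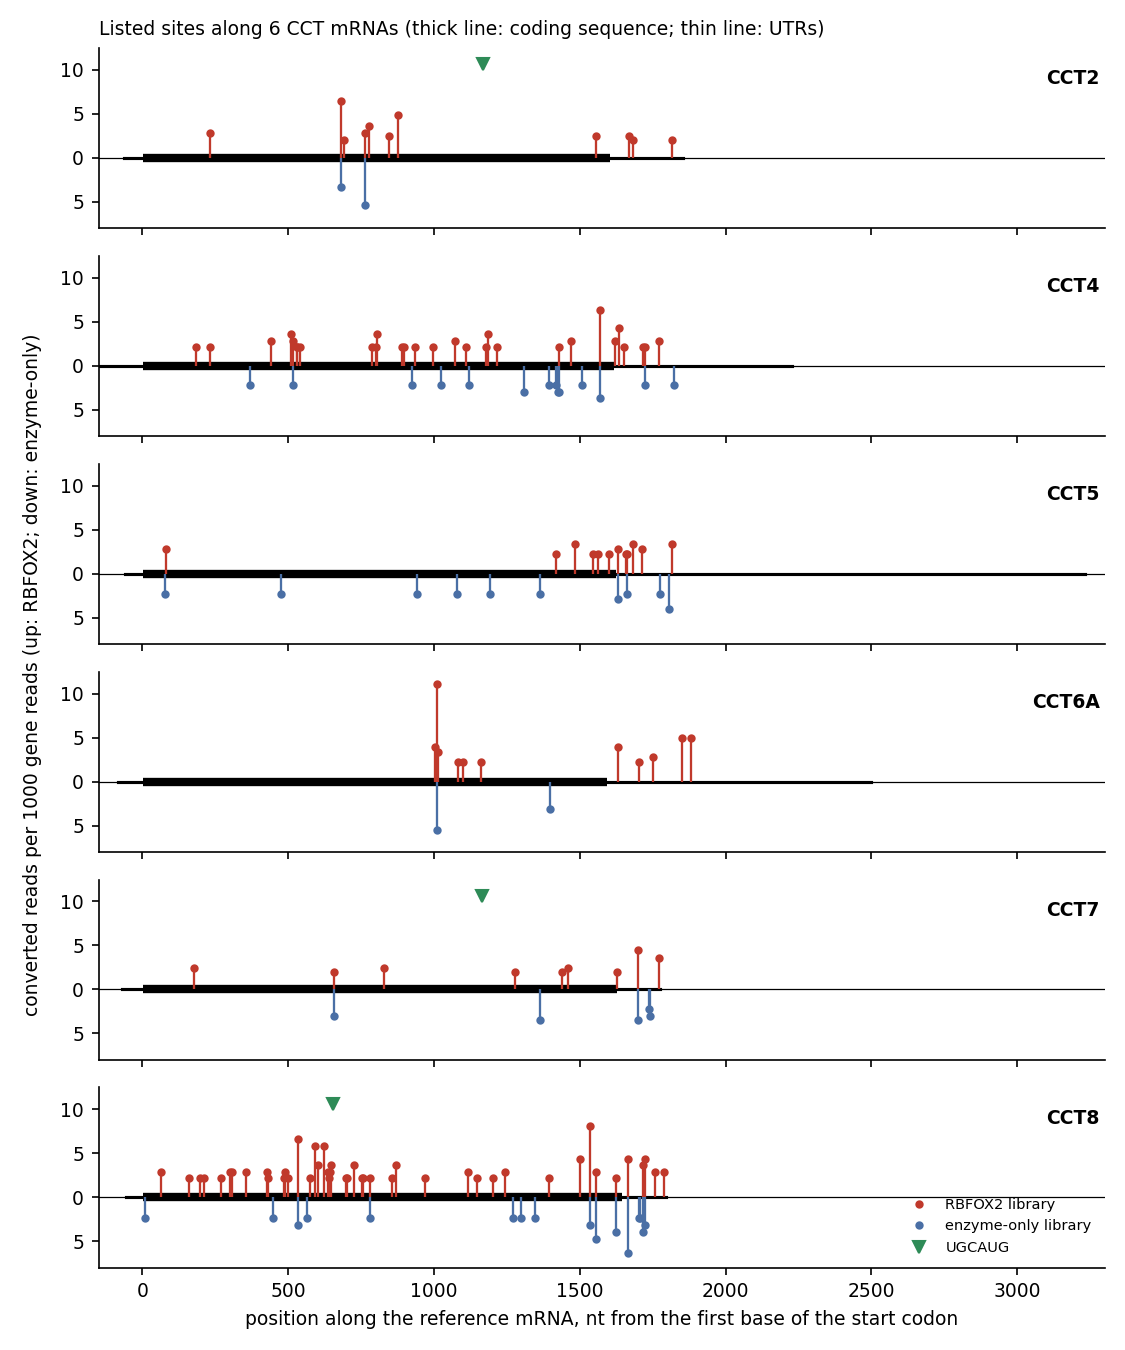
Converted reads per 1000 gene reads at each listed site of 6 CCT mRNAs, RBFOX2 library upward and enzyme-only downward, against the position in nt from the first base of the start codon; triangles mark UGCAUG. CCT8 has RBFOX2 sites on both sides of its hexamer, and the hexamers of CCT2 and CCT7 stand over stretches without sites.

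The base before the cytosine was the feature most widely shared. In the RBFOX2 library 116 of 118 sites followed A or U (98.3%, 94.0% to 99.8%), and in the enzyme-only library 45 of 49 (91.8%, 80.4% to 97.7%), against 49.4% of the mRNAs' cytosines. A preceded 64 and 24 sites and U preceded 52 and 21. G preceded 0 of 118 RBFOX2 sites (up to 3.08%) and 3 of 49 enzyme-only sites (6.12%, 1.28% to 16.9%), in CCT4, CCT5 and CCT7. The base after the cytosine was U at 58.5% of RBFOX2 sites (49.0% to 67.5%) and 59.2% of enzyme-only sites (44.2% to 73.0%), against 32.5% of cytosines. A and U made up a median of 65.0% of the 20 flanking bases in either library, against 55% for all cytosines. These features were common to both libraries, with and without the antibody. Both libraries carried the enzyme, so whether the features come from it was not tested.

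**Figure D5:**
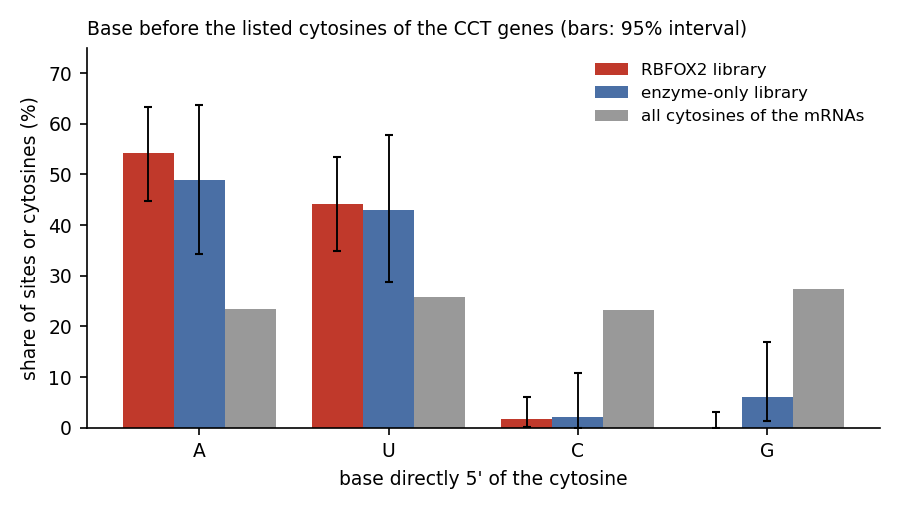
Share of listed CCT sites, in percent, by the base directly 5′ of the cytosine, for the RBFOX2 library (118 sites), the enzyme-only library (49 sites) and all cytosines of the mRNAs; bars are 95% intervals. A and U together precede 98.3% and 91.8% of sites and 49.4% of all cytosines.

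The 19 positions listed in both libraries included the most converted sites of several genes. They are shown with 10 genomic bases on each side, hg38, 5′ to 3′ on the gene's strand, the listed cytosine in capitals, to show the A or U that comes before most of them.

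CCT6A, chr7:56059576-56059596, plus strand: attcttttgaCgacctaagtc
CCT8, chr21:29060565-29060585, minus strand: aaactcgctaCtaatgctgca
CCT2, chr12:69592081-69592101, plus strand: tggagtaaatCaaccaaaacg
CCT4, chr2:61869467-61869487, minus strand: actcttgcaaCtgaaactgtt
CCT7, chr2:73252917-73252937, plus strand: ggcttggttaCttcattttac
CCT2, chr12:69592978-69592998, plus strand: atttggttccCgggtaagagt

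The CCT6A cytosine, a synonymous change at codon 337, was converted in 20 of 1806 RBFOX2 reads (1.11%, 0.678% to 1.71%) and 9 of 1626 enzyme-only reads (0.554%, 0.253% to 1.05%). It had the highest fraction of all CCT sites. The CCT8 cytosine (T512I) was converted in 11 reads (0.808%, 0.404% to 1.44%) with the antibody and 4 (0.317%, 0.0865% to 0.810%) without. The first CCT2 cytosine (Q228*) was converted in 16 reads (0.650%, 0.372% to 1.05%) and 8 (0.332%, 0.143% to 0.653%). CCT4 T523I gave 9 and 5 reads, and the 3′UTR cytosine of CCT7 gave 11 and 8. The second CCT2 cytosine (R255W), the exception in following C, went the other way with 7 reads (0.285%, 0.114% to 0.585%) and 13 (0.539%, 0.288% to 0.921%). At each of these 6 sites the intervals of the libraries overlapped, and a difference between the libraries was not tested.

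The most converted enzyme-only site of CCT5 was a 3′UTR cytosine at chr5:10264963, with 7 reads (0.397%) and not listed in the RBFOX2 library. In CCT7 a synonymous site at codon 454, with 8 reads (0.346%), was likewise listed in the enzyme-only library alone. In CCT5 the top RBFOX2 sites had 6 reads each, the first of them a synonymous change at codon 495. In CCT8 the enzyme-only library peaked in the 3′UTR at chr21:29056457, with 8 reads (0.634%, 0.274% to 1.25%) against 6 (0.441%, 0.162% to 0.957%) in the RBFOX2 library. No CCT site passed a fraction of 0.3.

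Because a C-to-U change alters codons in a fixed way, coding sites fell into few classes. Of 91 RBFOX2 coding sites with a codon in the reference mRNA, 36 were synonymous, 49 changed an amino acid and 6 created a stop codon. Of 35 enzyme-only sites, 9, 23 and 3 did so. Among all coding cytosines after A or U, 38.9% would be synonymous, 53.3% would change an amino acid and 7.80% would create a stop. Each RBFOX2 share and each enzyme-only share had that value inside its interval. Threonine to isoleucine was the most frequent change, at 19 RBFOX2 and 8 enzyme-only sites, followed in the RBFOX2 library by serine to phenylalanine at 13.

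Stop-creating sites were Q228* (listed in both) and R231* in CCT2, Q62*, Q178* and Q263* in CCT4, Q360* and Q516* in CCT5, and Q467* in CCT6A. CCT2 R231* lies 9 nt downstream of Q228*, with 5 RBFOX2 reads (0.203%). The 3 sites of CCT4 had 3 RBFOX2 reads each, and CCT5 Q516* had 4. CCT5 Q360* with 4 reads and CCT6A Q467* with 5 (0.308%) were listed in the enzyme-only library alone. CCT7, CCT8 and TCP1 had no stop-creating site. The cDNA shows the edited RNA and gives no measure of protein.

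Some paralogous positions were listed in more than 1 gene. The 114 listed coding positions fell on 101 aligned codons, of which 11 were listed in more than 1 gene. At 1 of these, near the C-terminus, the same threonine-to-isoleucine change was listed in 3 genes: CCT4 T523I with 9 and 5 reads, CCT8 T512I with 11 and 4, and CCT5 T521I with 4 reads in the RBFOX2 library alone. CCT4 T476I and CCT5 T473I also shared an aligned codon, as did CCT4 T437I and CCT8 T424I. How often chance would place sites on shared codons was not tested.

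EditsC, the share of an isoform's exonic cytosines that are listed, was computed from unshared sites for the 245 isoforms of the 7 genes. Every isoform of CCT2, CCT6A, CCT7 and CCT8 had a higher editsC in the RBFOX2 library, 28, 54, 24 and 35 isoforms. In CCT4 this held for 33 of 36 and in CCT5 for 23 of 27, with 4 lower. TCP1 was not compared, since the enzyme-only library does not list it. Isoforms of a gene share exons and reads of the gene are not split among them, so these counts repeat the gene's sites and are not independent. Medians were 10.5% and 2.45% in CCT8, 6.43% and 2.93% in CCT4, 2.93% and 0.333% in CCT6A, 2.55% and 1.69% in CCT5, 2.46% and 0% in CCT2, and 1.79% and 0.838% in CCT7. Of the 35 CCT8 isoforms, 24 hold the hexamer.

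Genes that work with CCT were looked up by list. Of 6 prefoldin genes, whose complex hands unfolded actin and tubulin to CCT, 4 were listed in both libraries, 1 above a log2 ratio of 1 (PFDN4, 5 and 1 sites) and 0 below -1, with a median of -0.41. The shares over genes with at least 20 sites were 16.8% above 1 and 14.6% below -1, so counts of 1 in lists this short are no result about them. Of 3 cofactor genes of the phosducin-like and related families, 1 was above 1 (TXNDC9, 36 and 9 sites) and the median was 0.17. Of 8 actin and tubulin genes, the substrates of CCT, 5 were listed in both: TUBA1A, with the most sites, had 31 in each, ACTB (10 and 0 sites) and ACTG1 (3 and 0) had more in the RBFOX2 library, and TUBA1C (2 and 12) and TUBG1 (3 and 16) fewer. TUBA1C and TUBG1 had a higher listing minimum with the antibody (3 converted reads) than without it (2), and the part of this in their ratios was not tested. HSPD1, the mitochondrial chaperonin, had 4 and 0 sites, and MKKS, a CCT-related gene, 5 and 13.

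The labelled cell line was checked against marker genes. NEFM, NEFL and INA, neurofilament genes known in this line, were listed in both libraries. Of the kidney-lineage genes of the same list, PAX2 was listed in the enzyme-only library alone, at 3 reads, and LHX1 had no gene model. UMOD, SLC34A1, PTPRC, HBB and ALB, which mark mature kidney, blood and liver, had no gene model, and AQP1 had a model with no listed position.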

How the data were processed

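C-to-U sites of 2 libraries of HEK293T cells, 1 per group as described in the labels, were analysed. Per the labels, PacBio Iso-Seq libraries were made from total RNA on build hg38. The study's methods name pbmm2 as the aligner of long reads, but with another kit and another isoform caller, so whether it made these tables is not stated. The authors deposited, for each site, 2 counts, the converted reads of the site and all reads of its gene, the latter 1 value per gene and library. The edit fraction the authors deposited is their quotient, not that of the reads at the position. All listed fractions exceeded 0.002. A deposited confidence score was not used. All 225811 rows fell on a cytosine of their strand.

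Of 12869 gene models, 12775 were assigned to GENCODE 44 genes. Codons and mRNA distances follow the MANE Select transcript. Regions were taken over all annotated transcripts of the gene, with coding sequence of any transcript ranked before 3′UTR. Proteins were aligned with mafft 7.526. Scripts ran in Python with scipy and pysam and were tested on simulated data. CCT6A has near-identical pseudogene copies, between which reads may be split. The members and lists were chosen with earlier results of these data known. All CCT genes are named. Sites are named if they had the most converted reads of their gene in a library, lay within 50 nt of UGCAUG or created a stop codon. Others named, such as positions on shared codons, were chosen after their values were seen. Alternatives covered the listing minimum, shared sites, exonic sites, scaling, pseudocount and motif window. Some genes that these rules or lists name are not reported here.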

Additional observations from a re-analysis of the deposited data

Results flagged for a closer look

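A few positions inside CCT genes, on the gene's strand, are listed under another gene model and were left out of the counts above. In TCP1, 4 positions of the 3′UTR, at chr6:159778765, 159778767, 159778776 and 159778796, are listed in the RBFOX2 library under the model of ACAT2, a gene of the opposite strand that overlaps the 3′ end of TCP1. Each had 1 converted read of 499, and 0 such positions are listed in the enzyme-only library, where that model had 408 reads. The tables do not show whether the 4 came from the same read. In CCT6A, 1 position of the 3′UTR, chr7:56063161, is listed in the RBFOX2 library under a model elsewhere on chromosome 7 (ENSG00000291124), with 1 converted read of 35, and 0 in the enzyme-only library. These were noted as signal outside the counted sites that the enzyme-only library lacked.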

How the results depend on the processing

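No paired analysis was possible because each group has 1 library. Of 150 values under another setting, 134 stayed within 1.5 times the count, inside the main interval or, for median editsC, within 1 SD over isoforms. That tally is a weak check. Several settings left the 99 and 30 unshared CCT sites unchanged, and single genes had wide intervals, that of CCT2 without an upper end. CCT4, at 0.42 with at least 2 converted reads against 1.02, still counted as inside its interval. Median editsC over isoforms nonetheless moved from 2.76% to 1.48% in the RBFOX2 library with the isoform of most cytosines per gene, and, with shared sites kept, the enzyme-only median moved from 0.581% to 0.980%. Scaling by other genes of 1000 to 3000 reads, chosen after seeing the data, moved the log2 ratio to 0.37 for the CCT genes together and to 0.80 for CCT8, and turned CCT4 to -0.06. With sites of at least 2 converted reads, which removes no CCT site but changes the library totals, the ratio together was 0.84. It stayed between 1.21 and 1.73 with any CCT gene left out, a choice also made after seeing the data. Keeping shared sites gave 49 enzyme-only sites, against 30, and 50.9 and 20.9 converted reads per 1000 gene reads in the RBFOX2 and enzyme-only libraries, against 39.1 and 10.8. Genes above a log2 ratio of 1 and below -1 numbered 71 and 35 with at least 2 converted reads (263 genes), 1087 and 960 with at least 10 sites (5594 genes), and 94 and 17 with at least 500 reads in both libraries (233 genes), against 605 and 525. The RBFOX2 share near the motif was 13.1% within 200 nt of UGCAUG and 16.2% within 50 nt of GCAUG, where the enzyme-only share was 13.3%. Depth limits all site counts, since positions with fewer than 3 to 5 converted reads are not listed.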
